A study of Mus musculus with 8 samples.

Results

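The MHC class II presentation genes are 9 genes taken by name: the chains of the class II molecules (H2-Aa, H2-Ab1 and H2-Eb1), the invariant chain gene Cd74, the genes of the peptide exchange factor H2-DM (H2-DMa and H2-DMb1), those of its inhibitor H2-O (H2-Oa and H2-Ob) and Ciita, the class II transactivator gene. All 9 were found by symbol among the 47069 Ensembl genes that both deposited tables hold. RNA was sequenced from regulatory T cells (Tregs) of lymph nodes of C57BL/6 mice aged 6 to 8 weeks, and both sorted populations came from the same reporter cross, 35EbiT × Blimp1-GFP KI. Ebi3-Treg cells were sorted as CD25+, CD62L-low, Thy1.1+ and Blimp1-, against Blimp1-Treg cells sorted as CD25+, CD62L-low, Thy1.1- and Blimp1+, both after enrichment of CD4+ T cells. The reporters mark activity at the time of the sort, the labels put its typical purity above 90%, and they do not say how many animals a library holds. Each population had 4 libraries, of which numbers 1 and 2 are in one table and 3 and 4 in the other.

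Class II molecules pair an alpha with a beta chain and carry peptides from endosomes and lysosomes to the cell surface, where CD4 T cells read them. The invariant chain fills the peptide groove during assembly, lysosomal proteases trim it to the fragment CLIP, H2-DM swaps CLIP for other peptides, and H2-O restrains H2-DM. Ciita switches the set on, and its protein is recruited by factors that sit on the X and Y boxes of class II promoters. B cells, dendritic cells and macrophages are the usual class II cells, mouse T cells are generally described as making little of it, and Blimp1 is known as a repressor of Ciita in plasma cells.

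Depth behind the FPKM values (fragments per kilobase of gene and megafragment), read from their smallest steps, was 13.3 to 25.6 M fragments in Ebi3-Treg libraries against 14.7 to 31.3 M in Blimp1-Treg libraries (M, mega). Both reporter genes went with the labels, as Ebi3 had 20.1 to 46.6 FPKM over the Ebi3-Treg libraries against 4.94 to 11.7 FPKM over the Blimp1-Treg libraries and Prdm1, which encodes Blimp1, had 1.94 to 4.33 FPKM over the Ebi3-Treg libraries against 52.2 to 121 FPKM over the Blimp1-Treg libraries. All 7 T cell markers were at 1 FPKM or more in each library, led by Trac (1966 to 2888 FPKM over the Ebi3-Treg libraries against 3340.2 to 4106 FPKM over the Blimp1-Treg libraries), Cd3g and Cd3e. None of the 7 passed with limma (2 at an unadjusted p under 0.05), all 7 log2 ratios (Ebi3-Treg over Blimp1-Treg) were negative with a median of -0.38, and the replicate block called Trac and Cd3e lower in Ebi3-Treg (limma adjusted p = 0.00608 and 0.00876), both without overlap. This block, which compares libraries of the same number, called 8.94% of all genes tested lower. More kinds of B cell markers were found in the libraries numbered 1: all 18 B cell markers were at 1 FPKM or more in both Ebi3-Treg 1 and Blimp1-Treg 1, against 8 to 10 in the other Ebi3-Treg libraries and 7 to 9 in the other Blimp1-Treg libraries. Those libraries were also the deepest of their populations (25.6 and 31.3 M fragments). They had 35548 and 32312 genes above 0, against 25132 to 28507 in the others. The part of depth in the marker numbers was not tested.

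Among the 8 members that were tested, H2-Oa separated the populations under the test and H2-Ob came next. H2-Oa was higher in Ebi3-Treg (log2 ratio 2.30, SE 0.28, limma adjusted p = 0.00354). The class II chains instead varied mostly between libraries: H2-Aa, H2-Ab1 and H2-Eb1 were abundant in Ebi3-Treg 1, Ebi3-Treg 2 and Blimp1-Treg 1 and low in the other 5. All members but Ciita reached 1 FPKM in at least 4 libraries and so were tested, and 1 of these 8 was called, against 6.29% of the 12273 genes tested (3.37% higher and 2.93% lower in Ebi3-Treg). A replicate block, which compares libraries of the same number, called H2-Ob as well, 2 of 8 against 22.4% of genes (13.5% higher and 8.94% lower).

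The median log2 ratio of the 8 members was 1.05, beside 0.07 over all genes tested. It was 1.76 in the first table alone (all genes 0.10), 0.38 in the second (all genes 0.04), and 0.43 without Blimp1-Treg 2. H2-Oa and H2-Ob were also the 2 of 8 whose populations did not overlap over all libraries with Ebi3-Treg above, which held for 6.63% of genes. Within each table taken alone, H2-Aa, H2-Ab1, H2-Oa and H2-Ob did not overlap, 4 of 8 with Ebi3-Treg above in both tables, against 11.7% of genes. All values are levels over the cells of a library, in which fewer cells of a type and less RNA per cell cannot be told apart.

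**Figure D1:**
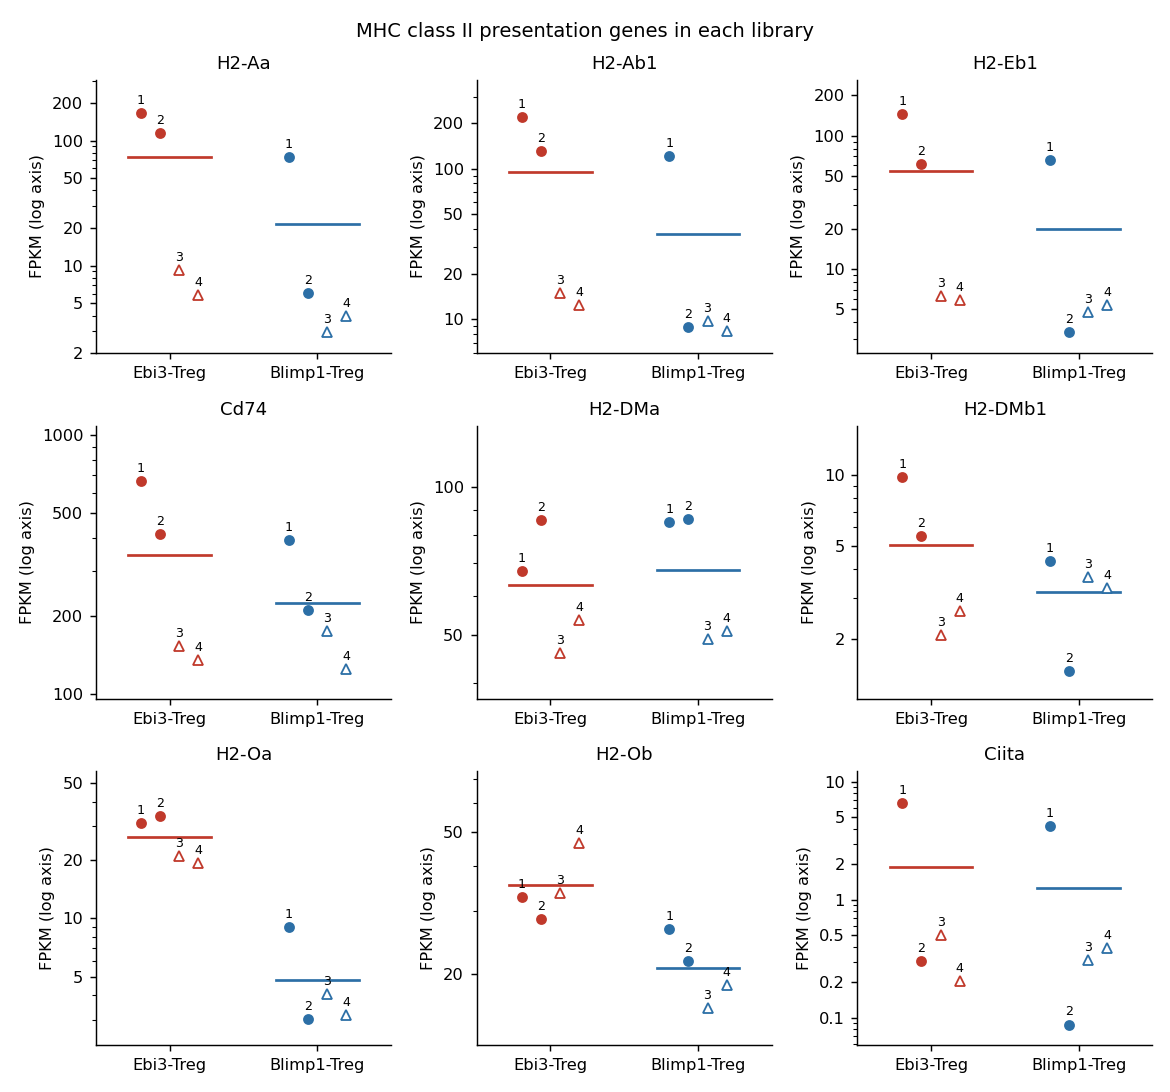
FPKM of the 9 class II presentation genes in each library (log axis, 1 panel per gene), with Ebi3-Treg left and Blimp1-Treg right. Filled circles are replicates 1 and 2, open triangles replicates 3 and 4, digits the replicate numbers and lines the means of 4 libraries. H2-Oa and H2-Ob do not overlap between the populations, H2-Ob by a narrow gap, while H2-Aa, H2-Ab1 and H2-Eb1 are high in Ebi3-Treg 1, Ebi3-Treg 2 and Blimp1-Treg 1.

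Promoters were compared for the boxes on which Ciita acts, since members of the set differed in their pattern over the libraries. RefSeq promoters (GRCm38.p6) were matched for 6 of the 9 members. The 130 bases before the start site are printed 5′ to 3′ for H2-Oa and H2-Ob, whose populations did not overlap over all libraries. Of these, limma with all 8 libraries called H2-Oa only. The same stretch is printed for H2-Aa and H2-Eb1, which varied mostly between libraries, and for H2-DMb1. H2-Aa was also higher in Ebi3-Treg without overlap within each table. Capitals mark the Y box letters CTGATTGG or their core ATTGG, which lies inside the longer form, and an X box pattern with open positions, all searched on both strands.
H2-Oa: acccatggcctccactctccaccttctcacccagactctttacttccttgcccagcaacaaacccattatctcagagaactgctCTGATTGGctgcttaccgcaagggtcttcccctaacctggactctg
H2-Ob: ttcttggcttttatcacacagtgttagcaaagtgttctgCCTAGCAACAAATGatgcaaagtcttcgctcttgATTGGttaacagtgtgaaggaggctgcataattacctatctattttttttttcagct
H2-Aa: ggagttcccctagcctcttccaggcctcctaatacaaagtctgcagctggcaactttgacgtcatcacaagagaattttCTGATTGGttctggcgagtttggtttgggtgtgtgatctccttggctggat
H2-Eb1: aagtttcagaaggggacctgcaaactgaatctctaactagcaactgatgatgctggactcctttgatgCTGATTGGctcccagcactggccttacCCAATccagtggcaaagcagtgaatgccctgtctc
H2-DMb1: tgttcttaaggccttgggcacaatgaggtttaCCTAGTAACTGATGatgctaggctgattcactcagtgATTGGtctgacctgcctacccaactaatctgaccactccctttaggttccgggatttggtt
H2-Oa is shown at chr17:34092249-34092378, plus strand, H2-Ob at chr17:34238775-34238904, plus strand, H2-Aa at chr17:34287824-34287953, minus strand, H2-Eb1 at chr17:34305737-34305866, plus strand, and H2-DMb1 at chr17:34153061-34153190, plus strand. The longer Y box letters stood in H2-Oa (positions -46 to -39 from the start site), H2-Aa (-51 to -44) and H2-Eb1 (-62 to -55, with the core again on the opposite strand at -35 to -31), and in 4.1% of all 32851 promoter windows of 300 bases. H2-Ob (-57 to -53) and H2-DMb1 (-61 to -57) had the core alone, which 37.4% of the windows hold. H2-DMa, the other member matched, has 2 promoters in the table, of which 1 holds the core (-198 to -194) outside a stretch of this length; they are not printed. The X box pattern matched in H2-Ob (-91 to -78) and H2-DMb1 (-98 to -85), against 0.785% of the windows. Near matches to its fixed letters were not counted, so a promoter without a match may still hold an X box. The stretch of H2-Eb1, for instance, holds a site that differs from the pattern at 1 base only. Whether these boxes had a part in the patterns over the libraries was not tested. A match of letters is a description, and no binding was measured.

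H2-Aa (ENSMUSG00000036594) encodes the alpha chain of I-A, the class II molecule of C57BL/6 mice. It had 167, 115, 9.18 and 5.87 FPKM in Ebi3-Treg 1 to 4, against 73.8, 6.09, 2.93 and 4.0 FPKM in Blimp1-Treg 1 to 4. Each Ebi3-Treg library was above both Blimp1-Treg libraries of its own table, while Ebi3-Treg 3 and 4 were far below Blimp1-Treg 1. With a log2 ratio of 1.76 (SE 0.70) it did not pass (limma adjusted p = 0.224). The first table (replicates 1 and 2) gave a log2 ratio of 2.60 and the second (replicates 3 and 4) 0.92. Leaving out both libraries numbered 2 brought it past the threshold with a smaller ratio, 1.0 (limma adjusted p = 0.0158), and without Blimp1-Treg 2 alone it was 0.91 (limma adjusted p = 0.060).

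Its partner H2-Ab1 (ENSMUSG00000073421), the beta chain gene of I-A, had 220.1, 131, 15 and 12.4 FPKM in Ebi3-Treg 1 to 4, against 121, 8.95, 9.81 and 8.41 FPKM in Blimp1-Treg 1 to 4. The same 3 libraries were on top, and in each table by itself Ebi3-Treg lay above Blimp1-Treg. The log2 ratio of 1.42 (SE 0.74) did not pass (limma adjusted p = 0.378). Fitted alone, the first table gave 2.29 and the second 0.54. Without both libraries numbered 2 it was called at 0.65 (limma adjusted p = 0.018), and without Blimp1-Treg 2 it stood at 0.52 (limma adjusted p = 0.229).

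H2-Eb1 (ENSMUSG00000060586) encodes the beta chain of the other molecule, I-E, whose alpha chain C57BL/6 mice do not make. Its levels were 145, 61.7, 6.27 and 5.85 FPKM in Ebi3-Treg 1 to 4, against 65.7, 3.38, 4.79 and 5.34 FPKM in Blimp1-Treg 1 to 4. Here the populations overlapped in the first table, where Blimp1-Treg 1 was above Ebi3-Treg 2. The log2 ratio of 1.35 (SE 0.85) did not pass (limma adjusted p = 0.489). Fitted alone, the first table gave 2.49 and the second 0.22, and without Blimp1-Treg 2 the ratio was 0.34 (limma adjusted p = 0.614). The alpha chain pseudogene H2-Ea-ps reached at most 0.683 FPKM across the Ebi3-Treg libraries, against 0.326 FPKM in Blimp1-Treg, and it was listed at 0 in both libraries numbered 2. H2-Eb2, another beta chain gene, had 1.49 FPKM in Ebi3-Treg 1, against 0.897 in Blimp1-Treg 1, and at most 0.112 FPKM in the other Ebi3-Treg libraries against 0.0924 FPKM in the other Blimp1-Treg libraries.

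Cd74 (ENSMUSG00000024610) was the most abundant member in each library. It had 667, 416, 154 and 136 FPKM in Ebi3-Treg 1 to 4, against 393, 211, 175 and 125 FPKM in Blimp1-Treg 1 to 4. Over the 8 libraries it ranged 5.33-fold, against 57.1-fold for H2-Aa, 26.2-fold for H2-Ab1 and 42.9-fold for H2-Eb1. The populations did not overlap in the first table and did in the second, where the log2 ratio was -0.03 (against 0.87 in the first). Over all libraries it was 0.42 (SE 0.29) and did not pass (limma adjusted p = 0.553).

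Set against H2-Ab1 in the same library, on the FPKM scale, Cd74 was 3.03, 3.18, 10.3 and 11 times as high in Ebi3-Treg 1 to 4, against 3.25, 23.5, 17.9 and 14.9 times in Blimp1-Treg 1 to 4. Cd74 remained at 136 FPKM or more in Ebi3-Treg and at 125 or more in Blimp1-Treg where the chains were low.

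Of the H2-DM pair, H2-DMa (ENSMUSG00000037649), the alpha chain gene, was the member with the smallest range over the libraries, 1.88-fold. It had 67.6, 85.6, 45.9 and 53.7 FPKM in Ebi3-Treg 1 to 4, against 84.8, 86.2, 49 and 51.1 FPKM in Blimp1-Treg 1 to 4, higher in the first table than in the second and overlapping in both. The log2 ratio was -0.09 (SE 0.13, limma adjusted p = 0.843). In the reference annotation 360 exon bases of H2-DMa lie opposite exons of Brd2, which had 107 to 218 FPKM over the Ebi3-Treg libraries against 99.2 to 262 FPKM over the Blimp1-Treg libraries, and reads of the pair cannot be told apart if the counting ignored strand.

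H2-DMb1 (ENSMUSG00000079547), a beta chain gene of H2-DM, had 9.88, 5.53, 2.08 and 2.63 FPKM in Ebi3-Treg 1 to 4, against 4.33, 1.47, 3.67 and 3.31 FPKM in Blimp1-Treg 1 to 4. Ebi3-Treg lay above in the first table and below in the second, with no overlap in either. The log2 ratios were 1.22 in the first, -0.43 in the second and 0.40 over all libraries (SE 0.41, limma adjusted p = 0.731). The difference between the tables, second minus first, was -1.64 (SE 0.61, limma unadjusted p = 0.0316) and was not called (adjusted p = 1, or 0.133 with the replicate block). H2-DMb2, a near-identical beta chain gene, had 60.3, 13, 7.36 and 8.84 FPKM in Ebi3-Treg 1 to 4, against 27.9, 6.78, 9.29 and 10 FPKM in Blimp1-Treg 1 to 4, which is 2.34 to 6.43 times H2-DMb1 within a library. Reads could be shared between these paralogs, so the split between them is uncertain.

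H2-Oa (ENSMUSG00000024334), the alpha chain gene of the inhibitor H2-O, had 31.2, 33.9, 21 and 19.3 FPKM in Ebi3-Treg 1 to 4, against 9.04, 3.01, 4.08 and 3.17 FPKM in Blimp1-Treg 1 to 4. The lowest Ebi3-Treg library was above the highest Blimp1-Treg library, which was number 1. Means were 26.4 ± 7.27 FPKM for Ebi3-Treg, against 4.82 ± 2.85 FPKM for Blimp1-Treg (SD, n = 4 each). These values rest on 325 to 926 reads in Ebi3-Treg libraries against 54 to 328 reads in Blimp1-Treg libraries.

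For H2-Oa the first table gave a log2 ratio of 2.40 and a ratio of the FPKM means of 5.4, and the second 2.2 and 5.56. The difference between the tables was -0.20 (SE 0.60, limma adjusted p = 1). Replicates 3 and 4 alone called it (limma adjusted p = 0.00583), and replicates 1 and 2 alone called it with the replicate block (adjusted p = 4.83e-05) but not without (adjusted p = 0.384). That blocked p rests mainly on variance borrowed across genes, as its fit leaves 1 residual degree of freedom. The call held without any 1 library (limma adjusted p up to 0.0205) and without both libraries numbered 1, at 2.51 (limma adjusted p = 0.00161). It was lost without both libraries numbered 3 (log2 ratio 2.36, limma adjusted p = 0.0653) or 4 (2.31, adjusted p = 0.0759). An antisense gene, BC051537, shares 321 exon bases with H2-Oa in the reference and had 0.234 to 0.624 FPKM over the Ebi3-Treg libraries against 0.0307 to 0.115 FPKM over the Blimp1-Treg libraries.

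H2-Ob (ENSMUSG00000041538), the beta chain gene of H2-O, had 32.9, 28.5, 33.7 and 46.6 FPKM in Ebi3-Treg 1 to 4, against 26.7, 21.8, 16 and 18.6 FPKM in Blimp1-Treg 1 to 4. Each Ebi3-Treg library was above each Blimp1-Treg library, with a narrow gap between Ebi3-Treg 2 and Blimp1-Treg 1. Means were 35.4 ± 7.82 FPKM for Ebi3-Treg, against 20.8 ± 4.6 FPKM for Blimp1-Treg (SD, n = 4 each). The log2 ratio of 0.74 (SE 0.21) missed the threshold (limma adjusted p = 0.0923). It passed with the replicate block (limma adjusted p = 0.0263), without both libraries numbered 1 (0.89, adjusted p = 0.0318) and without both numbered 2 (0.87, adjusted p = 0.0389). The first table gave 0.33 (limma adjusted p = 1) and the second 1.16 (adjusted p = 0.0253), a call lost there without Ebi3-Treg 4, Blimp1-Treg 3 or Blimp1-Treg 4. The difference between the tables was 0.82 (limma unadjusted p = 0.0494, adjusted p = 1) and was not called.

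The chains of H2-O stood in a different ratio in the populations. On the FPKM scale, which is per length, H2-Oa was at 0.949, 1.19, 0.623 and 0.414 times H2-Ob in Ebi3-Treg 1 to 4, against 0.339, 0.138, 0.255 and 0.171 times in Blimp1-Treg 1 to 4. The populations did not overlap in this ratio.

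**Figure D2:**
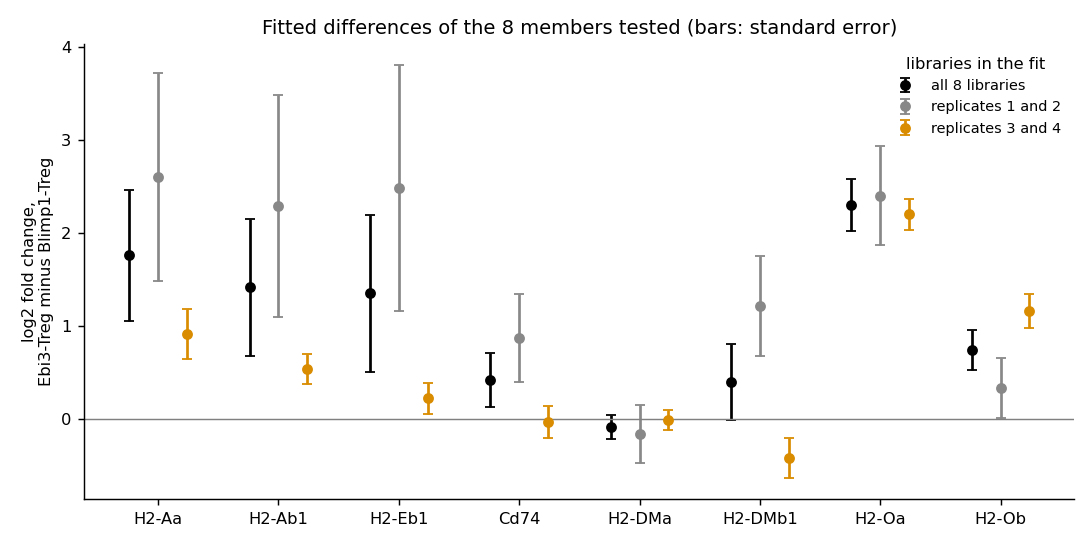
Log2 ratios of Ebi3-Treg over Blimp1-Treg, fitted on log2(FPKM + 1), for the 8 members tested, from all 8 libraries, from replicates 1 and 2 and from replicates 3 and 4 (points) with standard errors (bars). H2-Oa has 2.30, 2.40 and 2.2, whereas H2-Aa, H2-Ab1 and H2-Eb1 have wide bars in replicates 1 and 2 and smaller values in replicates 3 and 4.

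Taken alone, replicates 3 and 4 called 2 of 8 members, H2-Oa and H2-Ob, against 11.0% of genes. Replicates 1 and 2 called 0 of 8 with limma, against 0% of genes, while 1 member and 707 genes had an unadjusted p under 0.05. With the replicate block they called 6 of 8, all but H2-DMa and H2-Ob, against 23.3% of genes. This blocked fit leaves 1 residual degree of freedom, so its p values rest mainly on variance borrowed across genes. The fit hardly reflects the spread between the pairs of a member. In it the limma adjusted p was 0.00123 for H2-Aa, 0.00274 for H2-Ab1, 0.0012 for H2-Eb1, 0.00134 for Cd74 and 0.00101 for H2-DMb1, each with Ebi3-Treg above. The difference between the tables was called by limma for 0 of 8 members and 0% of genes (2 members and 203 genes had an unadjusted p under 0.05). The block left the members at 0 of 8, against 0.106% of genes.

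Ciita (ENSMUSG00000022504) reached 1 FPKM in too few libraries to enter the test. It had 6.61, 0.302, 0.50 and 0.207 FPKM in Ebi3-Treg 1 to 4, against 4.23, 0.0878, 0.307 and 0.389 FPKM in Blimp1-Treg 1 to 4. Both libraries numbered 1 stood above the other 6, and the populations overlapped in both tables. The values rest on 889 reads in Ebi3-Treg 1 against 695 in Blimp1-Treg 1, and on 24 to 35 reads in the other Ebi3-Treg libraries against 9 to 31 in the other Blimp1-Treg libraries. Ebi3-Treg 2 combined 131 FPKM of H2-Ab1 with 0.302 FPKM of Ciita, while Blimp1-Treg 1 combined 121 FPKM with 4.23 FPKM. Fitted without the filter on low values, its log2 ratio was 0.20 over all libraries (SE 0.62, limma adjusted p = 0.958) and was not called in either table alone. In the reference, 329 exon bases of Ciita overlap Dexi, which had 22.1 to 34.8 FPKM over the Ebi3-Treg libraries against 20 to 24.4 FPKM over the Blimp1-Treg libraries.

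Markers of other class II cells were set beside the chains. H2-Aa, H2-Ab1 and H2-Eb1 summed to 533, 308, 30.5 and 24.1 FPKM in Ebi3-Treg 1 to 4, against 260.3, 18.4, 17.5 and 17.8 FPKM in Blimp1-Treg 1 to 4. The 18 B cell markers summed to 1268 to 2023 FPKM across the Ebi3-Treg libraries, against 1781 to 2281 across the Blimp1-Treg libraries, most of it Ighm (1154 to 1902 FPKM over the Ebi3-Treg libraries against 1715 to 2214 FPKM over the Blimp1-Treg libraries). Without Ighm, left out after its values were seen, the other 17 summed to 441, 114, 158 and 121 FPKM in Ebi3-Treg 1 to 4, against 296, 65.6, 79.6 and 66.9 FPKM in Blimp1-Treg 1 to 4. Of the 18 markers, 15 were higher in both libraries numbered 1 than in the other 6, although Cd79b was at 23.1 FPKM or more in Ebi3-Treg against 18.6 FPKM or more in Blimp1-Treg, and Cd72 at 25.6 against 12.4 FPKM or more. None of the 11 tested passed with limma (2 at an unadjusted p under 0.05), and the block called 5 higher, among them Cd79b, Cd72, Cd22 and Bank1 (adjusted p = 0.0135, 0.00109, 0.000928 and 0.00843), and 1 lower, Ighm (adjusted p = 0.0482). Over all genes tested the block called 13.5% higher and 8.94% lower. In replicates 3 and 4 alone, where H2-Oa and H2-Ob were called, limma also called Cd22 (log2 ratio 1.36, adjusted p = 0.0316) and Bank1 (1.80, adjusted p = 0.0299) higher in Ebi3-Treg. That fit called 11.0% of all genes.

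Ebi3-Treg 2 was rich in chains with 8 of the 18 B cell markers at 1 FPKM or more, a number within the range of the other libraries not numbered 1. Macrophage and monocyte markers, 10 in all, summed to 119, 103, 14.3 and 24.4 FPKM in Ebi3-Treg 1 to 4, against 35.2, 11.2, 6.36 and 12.8 FPKM in Blimp1-Treg 1 to 4. The largest was the lysozyme gene Lyz2, with 99.1, 91.1, 8.0 and 20.4 FPKM in Ebi3-Treg 1 to 4, against 29.9, 7.9, 3.74 and 8.44 FPKM in Blimp1-Treg 1 to 4. The complement genes C1qb and C1qc had 3.46 and 3.04 FPKM in Ebi3-Treg 2. At least 1 FPKM was reached by 7, 4, 3 and 2 of the 10 in Ebi3-Treg 1 to 4, against 2, 2, 1 and 2 in Blimp1-Treg 1 to 4. The 2 that were tested, Lyz2 and C1qc, were called higher with the replicate block and not without it (limma adjusted p = 0.016 and 0.0182 with it, 0.092 and 0.0505 without). C1qc had at most 0.952 FPKM in Blimp1-Treg, against 1.26 FPKM or more in Ebi3-Treg. It therefore entered the test only through the Ebi3-Treg libraries, and its direction there cannot speak for the list. The block called 13.5% of all genes tested higher.

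The 11 dendritic cell markers summed to 52.3, 12.9, 14.1 and 10.6 FPKM in Ebi3-Treg 1 to 4, against 13.7, 5.18, 14.3 and 12.1 FPKM in Blimp1-Treg 1 to 4. Fscn1, which encodes an actin-bundling protein of mature dendritic cells, made up 30.8 FPKM of the sum in Ebi3-Treg 1 and passed only with the replicate block (log2 ratio 1.02, limma adjusted p = 0.609, or 0.0378 with the block). Batf3, a transcription factor gene, had 6.13, 5.23, 0.609 and 0.674 FPKM in Ebi3-Treg 1 to 4, against 0.433, 0.486, 0.352 and 0.645 FPKM in Blimp1-Treg 1 to 4, high in Ebi3-Treg 1 and 2. Fscn1 was not high in Ebi3-Treg 2, where its 2.01 FPKM was the lowest of that population. At least 1 FPKM was reached by 6, 4, 4 and 2 of the 11 in Ebi3-Treg 1 to 4, against 3, 1, 2 and 3 in Blimp1-Treg 1 to 4. Zbtb46 overlapped, with 3.5 to 7.55 FPKM over the Ebi3-Treg libraries against 2.06 to 10.8 FPKM over the Blimp1-Treg libraries, and Cd207 was listed at 0 in 3 Ebi3-Treg and 3 Blimp1-Treg libraries. The part of B cells, macrophages or dendritic cells in the class II levels, H2-O included, was not tested.

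Plasma cells, which make Blimp1, were followed with 8 markers that summed to 127 to 203 FPKM across the Ebi3-Treg libraries, against 156 to 244 across the Blimp1-Treg libraries. Most of it was Tnfrsf13b (111 to 138 FPKM over the Ebi3-Treg libraries against 119 to 177 FPKM over the Blimp1-Treg libraries). Jchain, the antibody joining chain gene, had 14.5, 0.292, 0.844 and 0.824 FPKM in Ebi3-Treg 1 to 4, against 12.5, 0.247, 6.02 and 11.8 FPKM in Blimp1-Treg 1 to 4. Igha, the heavy chain gene of IgA, had 43, 0.572, 0.824 and 0.473 FPKM in Ebi3-Treg 1 to 4, against 24.1, 1.77, 16.8 and 32.2 FPKM in Blimp1-Treg 1 to 4. In Blimp1-Treg 3 and 4, where Jchain and Igha were well above Ebi3-Treg 2 to 4, the class II chains were low. With all 8 libraries 1 of 5 markers tested was called, against 6.29% of all genes: Derl3, a gene of endoplasmic reticulum protein degradation (7.9 to 10 FPKM over the Ebi3-Treg libraries against 1.61 to 2.85 FPKM over the Blimp1-Treg libraries, log2 ratio 1.72, limma adjusted p = 0.00207). Replicates 3 and 4 alone called 11.0% of all genes. There limma called Igha (log2 ratio -3.89, adjusted p = 0.00749) and Jchain (-2.37, adjusted p = 0.0192) lower in Ebi3-Treg. Derl3 was called higher there too (1.61, adjusted p = 0.0194). Igha was also called lower without both libraries numbered 1 (-2.87, limma adjusted p = 0.0277).

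**Figure D3:**
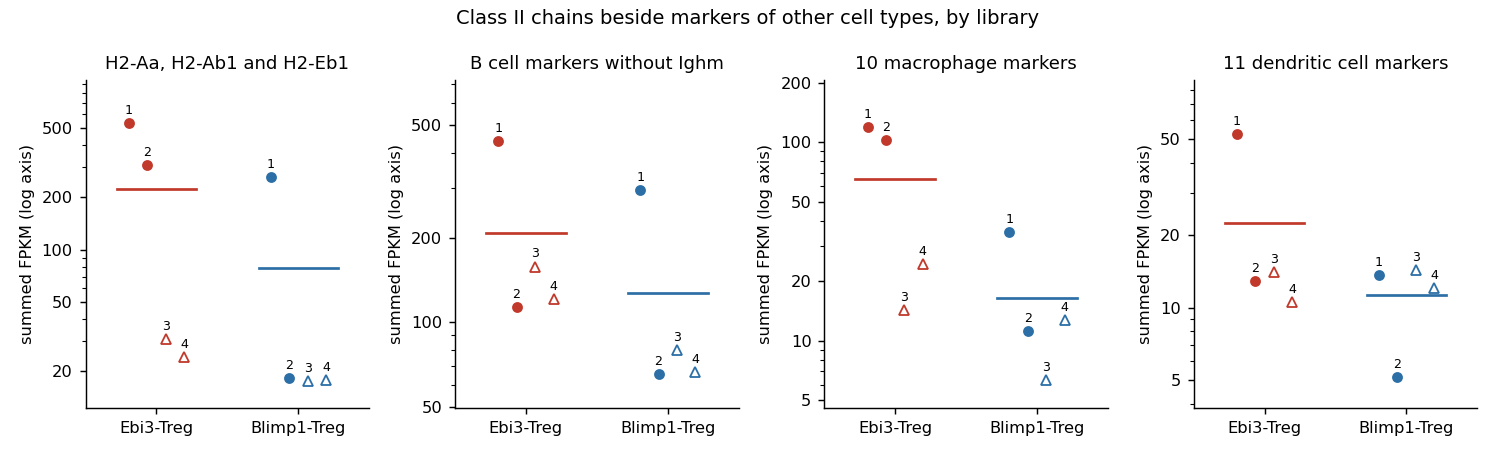
Summed FPKM per library (log axis) of the class II chain genes, the B cell markers without Ighm, 10 macrophage and monocyte markers and 11 dendritic cell markers, with Ebi3-Treg left and Blimp1-Treg right. Filled circles are replicates 1 and 2, open triangles replicates 3 and 4, digits the replicate numbers and lines the means of 4 libraries. The B cell sum is high in both libraries numbered 1. The macrophage and monocyte sum is high in Ebi3-Treg 1 and 2, where most of it is Lyz2 (99.1 and 91.1 FPKM).

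Processing proteases form the first list around the class II pathway. Of 12 antigen and invariant chain processing genes tested, 2 were lower in Ebi3-Treg, 0 higher and 10 did not pass, with a median log2 ratio of -0.27. Beside this list and those below, limma called 3.37% of all genes tested higher and 2.93% lower. With the block these shares were 13.5% and 8.94%. Lgmn, which encodes the lysosomal protease legumain, had 7.86, 5.31, 4.72 and 6.11 FPKM in Ebi3-Treg 1 to 4, against 81.8, 52.8, 24.5 and 21.9 FPKM in Blimp1-Treg 1 to 4. It was lower in Ebi3-Treg without overlap (log2 ratio -2.54, SE 0.29, limma adjusted p = 0.00306). Ctsb, the cathepsin B gene, had 111, 162, 133 and 146 FPKM in Ebi3-Treg 1 to 4, against 279, 284, 255 and 316 FPKM in Blimp1-Treg 1 to 4, and was lower as well (log2 ratio -1.04, SE 0.15, limma adjusted p = 0.0074). Ctss, whose protease makes a late cut in the invariant chain, had 359 to 514 FPKM over the Ebi3-Treg libraries against 238 to 454 FPKM over the Blimp1-Treg libraries and did not pass (0.31, limma adjusted p = 0.43). Ctsd, the cathepsin D gene, passed only with the block (-0.42, limma adjusted p = 0.0956, or 0.0173 with the block), which called 5 of the list lower and 0 higher.

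Among 11 class II transport and turnover genes 9 were tested, of which 1 was higher, 1 lower and 7 did not pass (block 3 higher, 1 lower; median 0.34). Lamp1, an abundant lysosomal membrane protein gene, had 163, 169.8, 181 and 201 FPKM in Ebi3-Treg 1 to 4, against 84.7, 84.2, 78.2 and 75.7 FPKM in Blimp1-Treg 1 to 4. It was higher in Ebi3-Treg (log2 ratio 1.13, SE 0.12, limma adjusted p = 0.0023). Its relative Lamp2 was lower, with 24.7, 28.8, 29.7 and 28.2 FPKM in Ebi3-Treg 1 to 4, against 50.6, 70.5, 51.7 and 60.3 FPKM in Blimp1-Treg 1 to 4 (log2 ratio -1.03, SE 0.15, limma adjusted p = 0.00782). Cd83, whose protein stabilises class II on the surface of dendritic cells, had 209 to 369 FPKM over the Ebi3-Treg libraries against 148 to 240.2 FPKM over the Blimp1-Treg libraries and passed only with the block (0.45, limma adjusted p = 0.337, or 0.0124 with the block). The tetraspanin gene Cd82 did not pass (0.34, limma adjusted p = 0.417).

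All 16 regulators of class II transcription were tested: 1 was higher, 0 lower and 15 did not pass (block 2 higher, 2 lower; median 0.11). Ifngr2, a chain of the receptor for interferon gamma, the cytokine that induces Ciita in many cells, had 38.7, 76.6, 29.6 and 30.1 FPKM in Ebi3-Treg 1 to 4, against 14.2, 12.5, 11.3 and 7.97 FPKM in Blimp1-Treg 1 to 4. It was higher in Ebi3-Treg without overlap (log2 ratio 1.75, SE 0.24, limma adjusted p = 0.00542). The other chain, Ifngr1, had 441 to 723 FPKM over the Ebi3-Treg libraries against 674 to 1238 FPKM over the Blimp1-Treg libraries and passed only with the block (-0.54, limma adjusted p = 0.263, or 0.0231 with the block). Irf1, an interferon-induced transcription factor gene, did not pass (-0.24, limma adjusted p = 0.323).

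Receptors of class II and its invariant chain were Lag3, Cd4 and Cd44, of which 1 was lower. Lag3, an inhibitory receptor whose ligands include class II, had 6.73, 1.96, 4.14 and 4.81 FPKM in Ebi3-Treg 1 to 4, against 121, 26.4, 31.8 and 68.5 FPKM in Blimp1-Treg 1 to 4. The populations did not overlap (log2 ratio -3.36, SE 0.52, limma adjusted p = 0.00899). Cd4 (-0.10, limma adjusted p = 0.896) and Cd44 (0.17, adjusted p = 0.75) did not pass. Of these 6 called genes, all but Lgmn lost the call both without the libraries numbered 3 and without those numbered 4, and Lgmn without number 3 (limma adjusted p = 0.0587).

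For class I presentation, limma called 0 of 20 genes (1 at an unadjusted p under 0.05), and the block 0 higher and 2 lower, with a median log2 ratio of -0.15. H2-D1, a class I heavy chain gene, had 5853 to 8792 FPKM over the Ebi3-Treg libraries against 7737 to 8972 FPKM over the Blimp1-Treg libraries. B2m, the class I light chain gene, had 2849 to 8161 FPKM over the Ebi3-Treg libraries against 3159 to 14959.6 FPKM over the Blimp1-Treg libraries. Both overlapped between the populations.

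**Figure D4:**
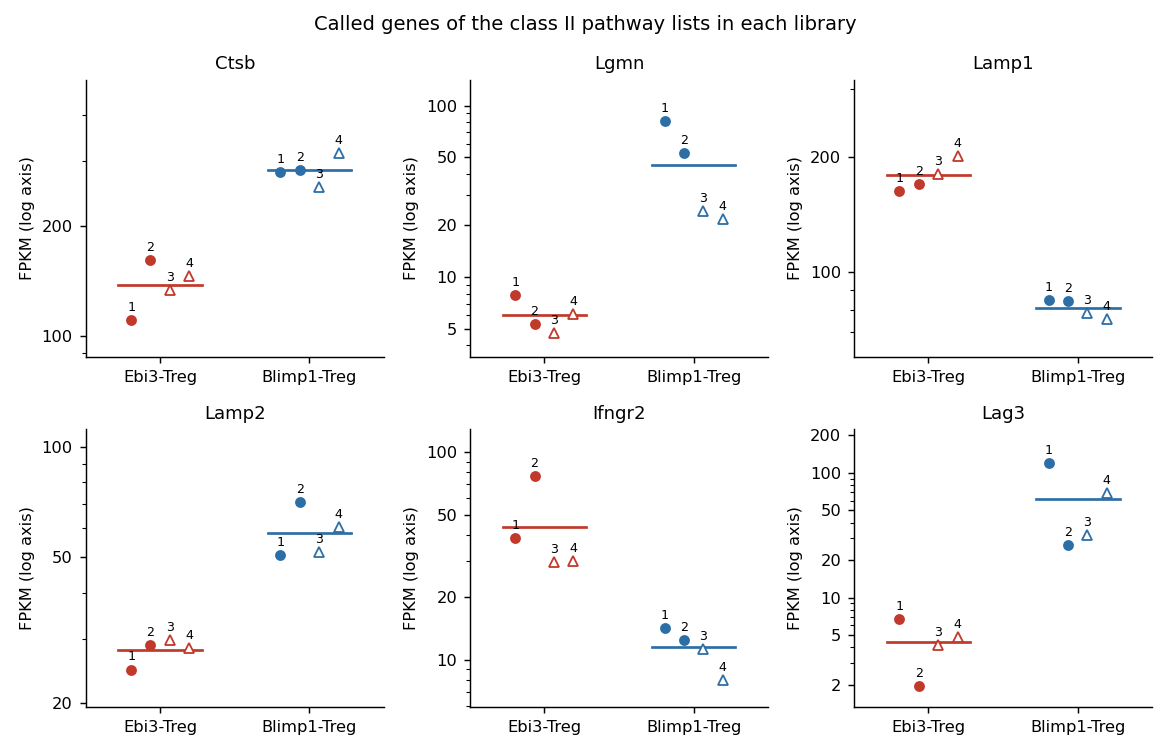
FPKM per library (log axis) of the 6 genes called in the lists around class II, with Ebi3-Treg left and Blimp1-Treg right. Filled circles are replicates 1 and 2, open triangles replicates 3 and 4, digits the replicate numbers and lines the means of 4 libraries. Lamp1 and Ifngr2 lie higher in Ebi3-Treg and Ctsb, Lgmn, Lamp2 and Lag3 lower, with no overlap.

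Likeness to the chains and Cd74 was measured over the 8 libraries as the root mean square difference (log2 units) of a gene's centred log2(FPKM + 1) profile from the mean centred profile of H2-Aa, H2-Ab1, H2-Eb1 and Cd74. Outside the set and the lists, the most alike were Cnn3 (0.732), which encodes an actin-binding calponin, Eps8l1 (0.796), the predicted gene Gm6436 (0.801), Ms4a4c (0.822) and the lysozyme gene Lyz1 (0.844). The 4 genes that make the profile lay at 0.214 (H2-Ab1) to 0.878 (Cd74), and the other members farther off, from 1.06 for Ciita to 1.56 for H2-Ob. Ms4a4c, a membrane protein gene, had 70.4, 58.5, 11.3 and 13.8 FPKM in Ebi3-Treg 1 to 4, against 15, 5.49, 1.91 and 2.43 FPKM in Blimp1-Treg 1 to 4, and was higher in Ebi3-Treg (log2 ratio 2.38, limma adjusted p = 0.00386), a call lost without the table term (adjusted p = 0.15) or without both libraries numbered 3 or 4. Lyz1 had 7.88, 7.25, 0.772 and 0.86 FPKM in Ebi3-Treg 1 to 4, against 1.82, 1.01, 0.618 and 0.538 FPKM in Blimp1-Treg 1 to 4 and did not pass (limma adjusted p = 0.145). Cnn3, Eps8l1 and Gm6436 were highest in the libraries numbered 1 and did not pass either (limma adjusted p = 0.555, 0.983 and 0.93), except that Cnn3 passed with the replicate block (0.85, adjusted p = 0.0223).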

How the data were processed

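Values per gene were deposited by the authors as FPKM, in 2 tables, and each library was read from the column that bears its title. Bowtie2 2.2.3, TopHat2 2.0.12, HTSeq 0.6.1 and mm9 are named per the submitters' processing notes, with no roles; annotation and counting mode are unknown. Per the labels' protocols, a SMART-Seq v4 kit for low RNA input was used; it amplifies cDNA, so read numbers cover counting error only. Symbols came from GENCODE names (46488 of 47069 genes). Promoter coordinates are those of RefSeq's GRCm38.p6 and not of the authors' build. Read numbers are the smallest that make all 8 values of a member whole within 0.01 reads.

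The 12273 genes that reached 1 FPKM in 4 or more libraries were fitted on log2(FPKM + 1) in limma 3.58.1 (R 4.3.3) with terms for population and table and a variance trend. A gene was called at a two-sided Benjamini-Hochberg adjusted p under 0.05 over all of them. Log2 ratios (log2 fold changes) set Ebi3-Treg over Blimp1-Treg and understate changes of low genes. Further fits took each table by itself and the difference between tables (an interaction). The fit was tested on simulated data with independent noise in each library, without the shared deviations that the next paragraph describes. The labels do not tie replicates to animals: a p value here reflects spread between samples that may be technical.

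Deviations from the population mean correlated across genes between libraries of one number (r = 0.62, 0.89, 0.53 and 0.54 for numbers 1 to 4). As each r was over 0.1, a fit that treats the numbers as pairs, the replicate block, is given as an alternative. The main fit does not pair the numbers, and calls are from it unless the block is named. Relative to the means within a table r was 0.85 for numbers 1 and 2 and -0.08 for 3 and 4. Set against the Blimp1-Treg library of its table with the unlike number, Ebi3-Treg 1 to 4 gave -0.27, -0.02, 0.56 and 0.61, so numbers 3 and 4 were no closer to their own number than to the other. Blocked values are given where they change the call of a gene named in the text.

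Members, lists and tests were chosen with earlier results of these data known. Named by rule were all members, of each pathway list up to 4 called genes and the 2 with the highest mean, the 3 highest markers of each cell type, the 5 genes most alike, Ebi3 and Prdm1. Derl3, Cd22, Bank1, Cd207, H2-Ea-ps and overlapping genes were added after their values were seen. Results on some genes that enter list counts and sums are not reported by name.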

Additional observations from a re-analysis of the deposited data

Results flagged for a closer look

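In 19 of 98 groups of 4 libraries, made of the genes looked at in each population, 1 library lay so far from the other 3 that its gap to the nearest exceeded Dixon's 95% critical share of the range. Chance does so in about 1 in 20 groups if values are normally distributed and groups are independent. Here the values were FPKM without logs, and these genes share libraries. Cnn3, Eps8l1 and Gm6436 were also chosen for their profile over these same libraries. The number of groups found therefore cannot be compared with that rate.

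Of the 18 groups of class II members, 5 held a library that far from the others. Blimp1-Treg 1 stood apart with H2-Aa at 73.8 FPKM, H2-Ab1 at 121 FPKM, H2-Eb1 at 65.7 FPKM and Ciita at 4.23 FPKM, and Ebi3-Treg 1 with Ciita at 6.61 FPKM. The same libraries stood apart in H2-DMb2 (60.3 FPKM in Ebi3-Treg 1, 27.9 in Blimp1-Treg 1) and H2-Eb2 (1.49 and 0.897 FPKM). Ebi3-Treg 1 did so in Jchain (14.5 FPKM), Igha (43 FPKM), Fscn1 (30.8 FPKM) and Gm6436 (16.3 FPKM), and Blimp1-Treg 1 in Cnn3 (9.72 FPKM) and Eps8l1 (11.4 FPKM). Ebi3-Treg 2 was far above the others of its population in Cd3g (2249 FPKM), Ctss (514 FPKM), Cd83 (369 FPKM) and B2m (8161 FPKM). Whether other cells had a part in these values was not tested.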

How the results depend on the processing

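With all 8 libraries, H2-Oa was called under each alternative that kept all libraries or left out 1, at log2 ratios of 2.02 to 2.56. Members called numbered 1 when any 1 library was left out, 2 with the replicate block and 0 to 4 without both libraries of a number (2 without number 1, 4 without number 2, 0 without number 3 or 4). All genes called numbered 772, against 2752 with the replicate block, 420 without the filter, 441 without the table term, 341 to 771 without 1 library and 92 to 1970 without both libraries of a number. In replicates 1 and 2 alone, 0 members and 0 genes were called by limma, against 6 members and 2855 genes with the replicate block, 18 genes without the filter, and 0 to 4 members and 8 to 76 genes without 1 library; the 4 were H2-Aa, H2-Ab1, H2-Eb1 and H2-Oa, without Blimp1-Treg 1. In replicates 3 and 4 alone, 2 members and 1347 genes were called, against 637 genes without the filter, 1 member and 764 genes without the variance trend, and 1 to 2 members and 143 to 485 genes without 1 library; H2-Ob lost its call there without Ebi3-Treg 4, Blimp1-Treg 3 or Blimp1-Treg 4. The difference between the tables was called for 0 genes and, with the replicate block, for 13. Log2 ratios that changed sign were not called on either side: Eps8l1 had -0.091 and -0.123 at pseudocounts of 0.1 and 0.01 and -0.00915 at equal library medians, and with libraries left out the range was -0.42 to 0.31 for Eps8l1, -0.40 to 0.45 for Zbtb46, -0.18 to 0.67 for H2-DMb2, -0.36 to 0.71 for Gm6436 and -0.28 to 0.00335 for Cd4. The causes were not tested. Depth limits Ciita most, with 9 reads in Blimp1-Treg 2.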
